A study of Mus musculus with 14 samples.

Results

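CRTC2 binding in 3T3-L1 adipocytes was compared between cells exposed to TNFα and cells exposed to TNFα together with forskolin (FSK), with 1 ChIP-seq library for each. The TNFα list held 19527 CRTC2 peaks and the FSK/TNFα list held 14171, and together they were 33698 of the 243429 peaks and regions in the 12 lists of the series. A peak was called kept when it overlapped a peak of the other list by at least 1 bp, lost when it was listed with TNFα only, and gained when it was listed with FSK/TNFα only. By this rule 6135 TNFα peaks were kept (31.4%, 95% Wilson interval 30.8 to 32.1) and 13392 were lost. The kept peaks corresponded to 6133 FSK/TNFα peaks (43.3%, 42.5 to 44.1), and the remaining 8038 FSK/TNFα peaks (56.7%) were gained. Intervals here and below cover counting error over peaks only, because there was no replicate library, and no p-value was computed. A peak that missed the calling threshold is not listed, so lost and gained describe the lists and not the absence of binding.

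FSK activates adenylyl cyclase and raises cAMP, which activates protein kinase A. CRTC2 is a coactivator of CREB whose access to chromatin is set by phosphorylation. Protein kinase A inhibits the salt-inducible kinases, which otherwise keep CRTC2 out of the nucleus. CREB binds the cAMP response element (CRE), the palindrome TGACGTCA, which begins with the half-site TGACG on each strand. AP1 factors bind the related sequence TGACTCA. TNFα activates NF-κB, of which p65 is a subunit, and induces chemokine genes in adipocytes.

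3T3-L1 is a mouse preadipocyte line that differentiates into adipocytes in culture. Differentiated cells were left untreated (control) or were exposed for 1 h to FSK (10 µM), to TNFα, or to FSK and TNFα, and chromatin was precipitated for CRTC2, NF-κB p65, and the active histone mark H3AcK27. The 2 libraries compared here held 26472345 tags (TNFα) and 31807394 tags (FSK/TNFα), of which 3.10% and 2.05% fell in CRTC2 peaks. The authors called the TNFα peaks against an input from control cells and the FSK/TNFα peaks against an input from FSK-treated cells, so the addition of FSK and the change of input cannot be told apart. The input filter removed 9545 of 32176 candidate peaks with TNFα (29.7%) and 12953 of 29385 with FSK/TNFα (44.1%).

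The adipocyte label was checked against H3AcK27 over the transcription start sites of marker genes. Of 8 adipocyte markers, 4 carried the mark with TNFα (Fabp4, Lipe, Lpl, and Pparg) and 3 with FSK/TNFα (Fabp4, Lipe, and Lpl), whereas Adipoq, Plin1, Cidec, and Cebpa were without it in both. All 6 preadipocyte and fibroblast markers carried it in both libraries, together with 2 of 6 macrophage markers (Cd68 and Csf1r) and 0 of 4 endothelial markers. Over all protein-coding genes the share was 49.0% with TNFα and 46.2% with FSK/TNFα. In 4 segments of 2 Mb on chromosomes 4 and 10, the input density reached 4.89 to 31.6 times that of the median segment, and the peaks with most tags in both lists lay there. Without these segments 6120 of 19485 TNFα peaks were kept, so they hardly moved the counts, and they were left out of the named peaks.

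The sequences below are examples of single peaks from the classes. They are 3 of the leading gained peaks (at Atp5d, Sfta2, and Cd93, with an input of 7.72, 1.10, and 3.31 normalized tags), 2 gained promoter peaks of established CREB targets (Nr4a1 and Sik1, chosen after their values were seen), 2 leading lost peaks, and 1 leading kept peak. Some of these peaks lay close to a peak of the other list, at 164 bp between midpoints for Sirt4, 165 bp for Sfta2, and 406 bp for Cd93. The S100a4 peak was also called with FSK alone and in control cells. All sequences are read from the GRCm38.p6 plus strand, without any exon. Capitals mark matches to a CRE, AP1, ETS, or C/EBP motif on either strand (CGTCA is the reverse complement of TGACG).
Gained, promoter of Atp5d, chr10:80141360-80141456: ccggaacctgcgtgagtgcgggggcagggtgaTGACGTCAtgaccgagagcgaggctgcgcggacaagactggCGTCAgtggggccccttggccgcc
Gained, 10879 bp upstream of Sfta2, chr17:35590589-35590751: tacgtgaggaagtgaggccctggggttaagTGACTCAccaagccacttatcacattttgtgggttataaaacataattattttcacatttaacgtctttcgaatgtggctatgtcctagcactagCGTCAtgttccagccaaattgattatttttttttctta
Gained, 78618 bp upstream of Cd93, chr2:148522100-148522262: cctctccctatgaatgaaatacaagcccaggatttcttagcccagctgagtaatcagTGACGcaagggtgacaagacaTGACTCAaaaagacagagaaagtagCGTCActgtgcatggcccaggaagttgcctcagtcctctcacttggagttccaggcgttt
Gained, promoter of Nr4a1, chr15:101266744-101266845: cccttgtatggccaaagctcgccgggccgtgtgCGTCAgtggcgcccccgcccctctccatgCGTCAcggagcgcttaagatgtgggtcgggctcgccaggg
Gained, promoter of Sik1, chr17:31855897-31856059: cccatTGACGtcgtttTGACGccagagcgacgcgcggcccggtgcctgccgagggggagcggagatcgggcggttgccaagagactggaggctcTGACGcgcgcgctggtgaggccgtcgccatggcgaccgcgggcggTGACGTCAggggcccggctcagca
Lost, 5019 bp upstream of Sirt4, chr5:115489666-115489822: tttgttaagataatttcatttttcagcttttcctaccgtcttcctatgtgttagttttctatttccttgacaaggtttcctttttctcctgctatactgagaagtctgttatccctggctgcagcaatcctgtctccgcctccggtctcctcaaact
Lost, promoter of S100a4, chr3:90603807-90603874: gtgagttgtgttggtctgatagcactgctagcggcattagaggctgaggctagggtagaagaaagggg
Kept, promoter of Ing1, chr8:11557868-11558030: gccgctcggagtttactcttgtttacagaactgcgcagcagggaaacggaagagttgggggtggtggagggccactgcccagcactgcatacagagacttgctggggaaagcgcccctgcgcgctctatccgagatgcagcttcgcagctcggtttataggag
Each of the 5 gained sequences held at least 1 CRE half-site, the Atp5d and Sik1 promoters also held the full palindrome, and the Sfta2 and Cd93 peaks also held an AP1 site. The Sirt4, S100a4, and Ing1 stretches held none of these motifs. These stretches were selected and do not represent their classes. Among leading peaks not printed, the gained peaks near Tnfsf15 and Trim32 held no CRE half-site. The lost peak near Sfi1 held a CRE half-site and the one near Cwc22 held an AP1 site. Over all peaks, the half-site was found in 23.3% of gained, 11.0% of lost, and 25.9% of kept peaks.

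Kept peaks had more normalized tags than lost or gained peaks by their medians. Peak heights are given as normalized tags, which the authors computed for a library size of 10000000. Kept peaks had a median of 19.6 normalized tags with TNFα and 14.5 with FSK/TNFα, compared with 9.82 for lost peaks and 9.75 for gained peaks. They made up 31.4% of the TNFα list but 48.4% of its normalized tags, and 43.3% of the FSK/TNFα list but 53.2% of its normalized tags. Of the 1953 TNFα peaks with most tags (the first decile), 81.0% were shared (79.2 to 82.6), and the share fell with every decile to 5.79% in the last. In the FSK/TNFα list it fell from 70.2% (67.7 to 72.5) in the first decile to 15.3% in the last. This order depended on the measure used for ranking. By fold over input 41.0% of the first decile of the FSK/TNFα list were shared (38.5 to 43.6), near the 43.3% of the whole list, and shared and unshared peaks had the same median rank, at 49.9% of the list.

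The decline differed by position. A promoter was taken as 1000 bp upstream to 100 bp downstream of a protein-coding start site. Of the 8279 TNFα peaks in promoters 53.0% were shared (51.9 to 54.1), compared with 15.5% (14.9 to 16.2) of the 11248 peaks elsewhere. In the FSK/TNFα list the shares were 78.2% (77.1 to 79.2) of 5628 promoter peaks and 20.3% (19.5 to 21.2) of 8543 peaks elsewhere. In the first decile of the FSK/TNFα list 91.5% of promoter peaks but 40.2% of the other peaks were shared, whereas in the first decile of the TNFα list the 2 shares were 81.9% and 77.1%. The gap between promoters and other positions was therefore wide among the strongest FSK/TNFα peaks and narrow among the strongest TNFα peaks, which is a description of these libraries.

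**Figure D1:**
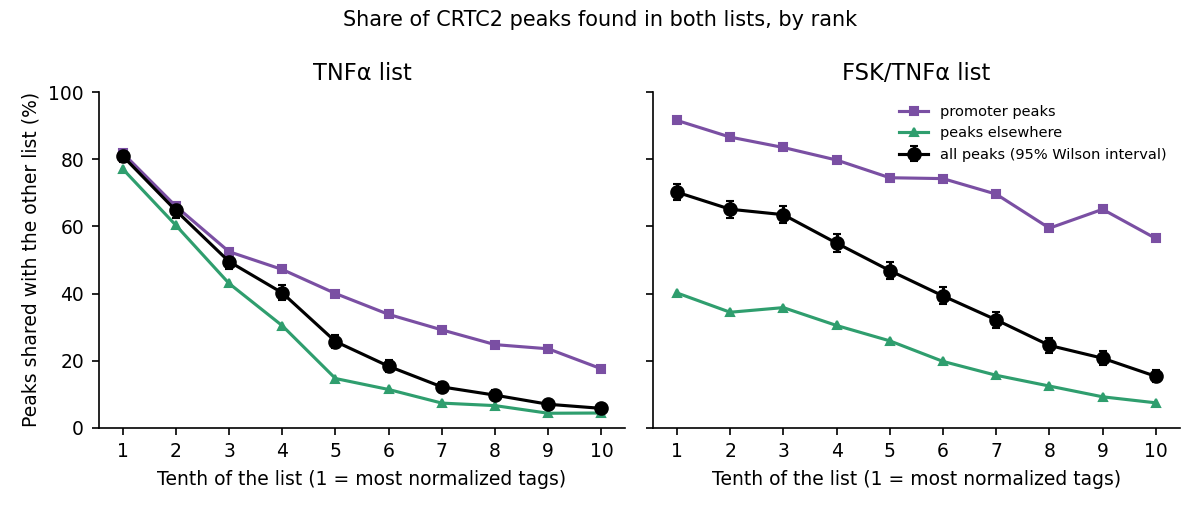
Percent of CRTC2 peaks shared with the other list (y axis) by decile of the TNFα list (left) and the FSK/TNFα list (right), ordered by normalized tags from most to fewest. Black circles are all peaks with 95% Wilson intervals, squares are promoter peaks, and triangles are peaks elsewhere; in the first decile of the FSK/TNFα list 91.5% of promoter peaks and 40.2% of other peaks were shared.

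The lists differ in length, so the counts were repeated with equal lists. When both were cut to 14171 peaks by normalized tags, 5752 TNFα peaks were kept (40.6%, 39.8 to 41.4), 8419 were lost, and 8420 were gained. In the best 5000 peaks of each list 2443 were shared (48.9%, 47.5 to 50.2). Of these leading peaks, 74.2% of the lost and 34.3% of the gained were in promoters. Near misses occurred in both directions, and 2815 lost peaks (21.0%, 20.3 to 21.7) and 1880 gained peaks (23.4%, 22.5 to 24.3) lay within 1000 bp of a peak of the other list. One such pair was upstream of Sirt4, a mitochondrial sirtuin, where the lost peak (80.1 normalized tags) lay 164 bp, between midpoints, from an FSK/TNFα peak of 68.5 normalized tags.

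Gained peaks were mostly distal, and kept peaks were mostly at promoters. Promoters held 15.3% of gained peaks (14.5 to 16.1), 29.0% of lost peaks (28.3 to 29.8), and 71.5% of kept peaks (70.4 to 72.7). Intergenic sequence held 42.1% of gained peaks, 26.4% of lost peaks, and 8.39% of kept peaks, and introns held 38.4%, 37.4%, and 10.2%. The median distance to the nearest start site was 18397 bp for gained peaks, 6121.5 bp for lost peaks, and 91 bp for kept peaks. Gained and lost peaks also resembled each other in base composition, with a median G+C content of 47.5% and 50%, compared with 64.5% in kept peaks.

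CRE half-sites and AP1 sites set the gained peaks apart from the lost ones. Exact matches on either strand were counted in the 200 bp centered on each peak, and kept peaks were read at their TNFα midpoint. The half-site TGACG was found in 23.3% of gained peaks (22.4 to 24.3), 11.0% of lost peaks (10.5 to 11.6), and 25.9% of kept peaks (24.9 to 27). In windows 2 kb away from the peaks it was found in between 5.97% and 6.20%, and in 18.7% of equally long windows over 41421 protein-coding start sites. The full palindrome TGACGTCA, which contains the half-site, was found in 2.45% of gained peaks (2.13 to 2.81), 0.373% of lost peaks (0.283 to 0.492), and 2.79% of kept peaks (2.40 to 3.23), compared with 1.78% of the start site windows. The AP1 sequence TGACTCA was found in 22.1% of gained peaks (21.2 to 23.0), compared with 5.99% (5.60 to 6.40) of lost peaks and 3.80% (3.35 to 4.31) of kept peaks. It was found in between 3.57% and 3.68% of the windows 2 kb away, and in 2.69% of the start site windows.

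Both motifs differed by position. Among promoter peaks the CRE half-site was found in 31.6% of gained (29.0 to 34.2), 29.1% of kept (27.7 to 30.4), and 19.5% of lost peaks (18.3 to 20.8). Away from promoters it was found in 21.8% of gained peaks (20.9 to 22.8), compared with 7.52% (7.01 to 8.07) of lost peaks. The windows 2 kb away held it in 6.13% and 5.91%. AP1 sites lay mainly in gained peaks outside promoters, where 25.2% had one (24.2 to 26.2), compared with 7.35% (6.84 to 7.89) of lost peaks and 9.28% (8.01 to 10.7) of kept peaks. In promoters the AP1 share was 4.88% in gained, 2.67% in lost, and 1.62% in kept peaks. The ETS sequence CCGGAAGT, common in the promoters of housekeeping genes, went the other way, with 6.54% of kept, 2.40% of lost, and 1.01% of gained peaks, compared with 4.11% of the start site windows. The C/EBP sequence TTGCNNCAA was found in 2.20% of gained, 1.43% of lost, and 0.896% of kept peaks, and the NF-κB consensus in 0.535%, 0.149%, and 0.212%. The start site windows held these motifs in 1.13% and 0.0966%.

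**Figure D2:**
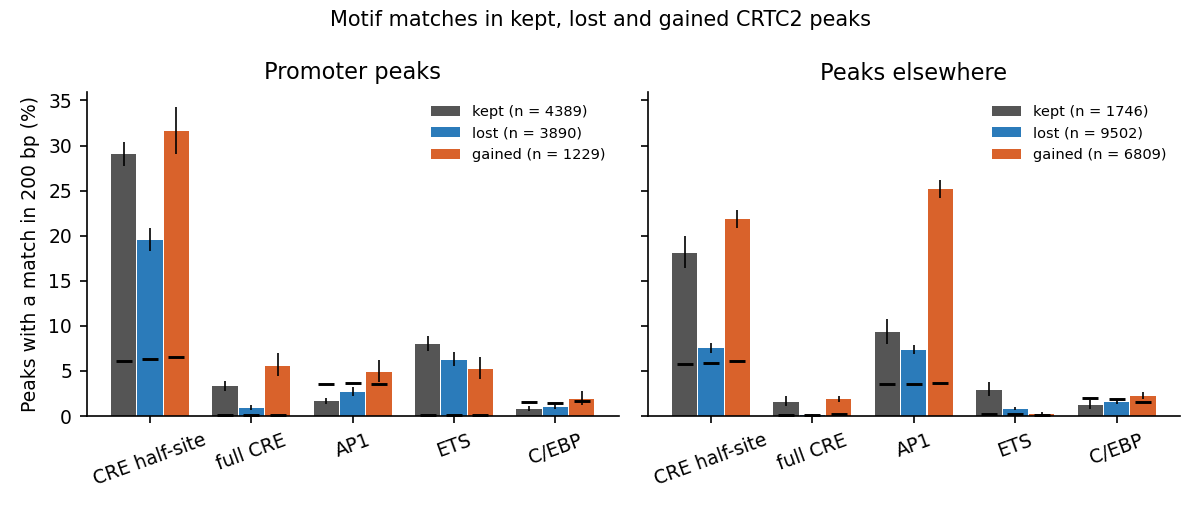
Percent of kept (grey), lost (blue), and gained (orange) CRTC2 peaks with a motif match in 200 bp (y axis), for promoter peaks (left) and peaks elsewhere (right). Error bars are 95% Wilson intervals and black dashes are the shares in windows 2 kb away; outside promoters AP1 was found in 25.2% of gained and 7.35% of lost peaks.

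Gained peaks held the CRE half-site and AP1 apart or together. Of the 1875 gained peaks with a CRE half-site, 456 also held AP1. Of all 8038 gained peaks 1774 held AP1 (22.1%), so the AP1 share was similar in both. Of the 8038 gained peaks, 1419 held a CRE half-site without AP1 (17.7%), 1318 held AP1 without a CRE half-site (16.4%), 456 held both (5.67%), and 4845 held neither (60.3%). Gained peaks with both motifs had a median of 12.6 normalized tags, those with the CRE half-site only 11.6, those with AP1 only 9.75, and those with neither 9.12. Gained peaks with AP1 only lay far from start sites, with a median distance of 30078 bp and 3.03% in promoters. Gained peaks with the half-site only lay at a median of 11145 bp, with 25.9% in promoters.

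The CRTC2 lists from control cells and from FSK alone took no part in the choice of the peaks. The FSK list shares its input with the FSK/TNFα list, and the control list shares its input with the TNFα list. With FSK alone 29.3% of gained peaks (28.4 to 30.3) were also called, compared with 12.5% (11.9 to 13.1) of lost peaks and 64.4% (63.2 to 65.6) of kept peaks. In control cells 2.26% of gained peaks (1.96 to 2.61), 4.81% of lost peaks (4.46 to 5.18), and 26.7% of kept peaks (25.6 to 27.8) were called. Away from promoters the shares called with FSK alone were 27.8% of gained and 6.24% of lost peaks. The FSK library held fewer tags (16438040), and a weak peak can be missed there.

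Gained peaks that FSK alone also called were stronger and richer in motifs. They numbered 2358, with a median of 13.8 normalized tags, and 40.2% (38.2 to 42.2) held a CRE half-site and 27.8% (26 to 29.6) an AP1 site. The 5680 gained peaks that were not called with FSK alone had a median of 8.80 normalized tags, and 16.3% (15.4 to 17.3) held a CRE half-site and 19.7% (18.7 to 20.8) an AP1 site. Of gained peaks with both motifs 57.2% (52.7 to 61.7) were called with FSK alone, followed by 48.4% of those with the half-site only, 29.9% of those with AP1 only, and 21.0% of those with neither.

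Most gained peaks lay in regions that were already listed as acetylated without FSK. H3AcK27 regions held 73.1% of gained peaks in control cells (72.2 to 74.1), 74.5% with TNFα (73.6 to 75.5), and 71.7% with FSK/TNFα (70.7 to 72.6). For lost peaks the TNFα and FSK/TNFα shares were 63.5% (62.7 to 64.3) and 58.3% (57.5 to 59.2), and for kept peaks 98.6% and 96.8%. In lists of equal length the gained and lost peaks hardly differed, since the FSK/TNFα share was 72.5% of gained and 72.1% of lost peaks. The 5580 lost peaks outside FSK/TNFα acetylated regions had a median of 8.31 normalized tags, and 6.11% held a CRE half-site.

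Overlap with p65 was rare in every class and highest in gained peaks. Peaks of p65 with FSK/TNFα overlapped 378 gained peaks (4.70%, 4.26 to 5.19), 98 lost peaks (0.732%, 0.601 to 0.891), and 91 kept peaks (1.48%, 1.21 to 1.82). With TNFα alone the shares were 2.40% of gained, 0.515% of lost, and 0.864% of kept peaks. The p65 lists held 4221 peaks with FSK/TNFα and 2404 with TNFα. The 378 gained peaks at p65 had a median of 14.1 normalized tags, 31.0% (26.5 to 35.8) held an AP1 site, and 3.70% (2.22 to 6.12) held the NF-κB consensus.

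**Figure D3:**
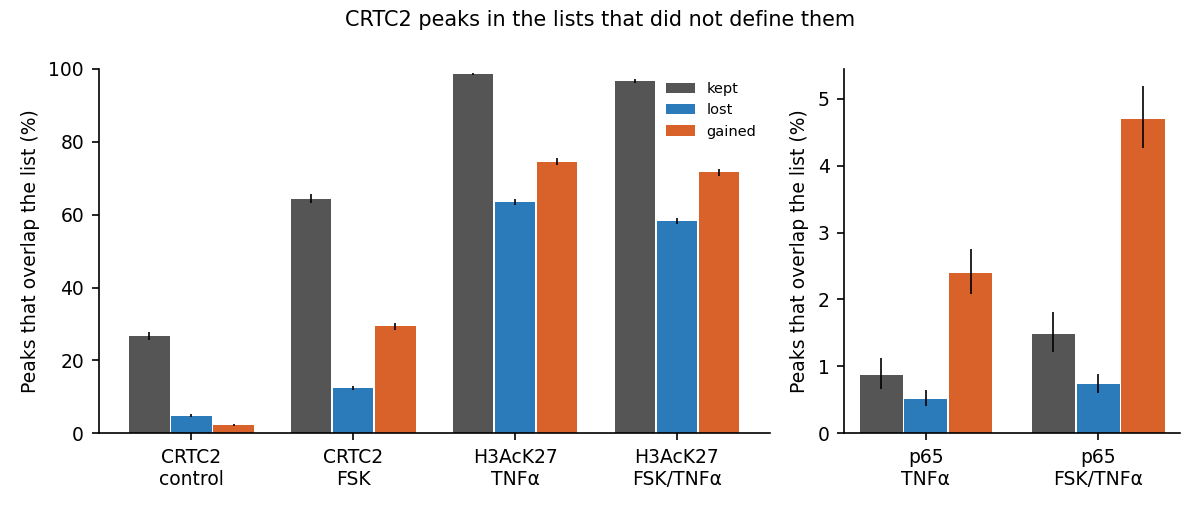
Percent of kept (grey), lost (blue), and gained (orange) CRTC2 peaks that overlap a peak or region of a list that did not define them (y axis, with 95% Wilson intervals; the scale of the p65 panel is smaller). FSK alone called 29.3% of gained and 12.5% of lost peaks, and p65 with FSK/TNFα overlapped 4.70% and 0.732%.

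The strongest lost and gained peaks were further apart in position, motifs, and FSK overlap than the classes as a whole. Among the 500 lost peaks with most tags (at least 25.7 normalized tags), 77.4% were in promoters, 20% held a CRE half-site, 1.4% held an AP1 site, and 46.2% were called with FSK alone. Among the 500 gained peaks with most tags (at least 22.6 normalized tags), 17.2% were in promoters, 55.0% held a CRE half-site, 30.0% held an AP1 site, and 84.4% were called with FSK alone. H3AcK27 regions with FSK/TNFα held 97.0% of the former and 95% of the latter. Peaks of p65 with FSK/TNFα overlapped 0.400% of the leading lost peaks and 15.0% of the leading gained peaks.

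The leading gained peaks that are described here included 1 promoter peak and 4 distal peaks. At the promoter of Atp5d, a subunit of the mitochondrial ATP synthase, the gained peak had 88.7 normalized tags over an input of 7.72. The gained peaks near Sfta2 (86.1 normalized tags) and Cd93 (79.5) followed, and all 3 were also called with FSK alone. A weaker TNFα peak lay near each of the 3. Between midpoints it was 999 bp away at Atp5d (23.8 normalized tags), 165 bp near Sfta2 (9.82), and 406 bp near Cd93 (17.0). The Sfta2 peak thus narrowly missed the overlap rule. The peak near Sfta2 overlapped a p65 peak with FSK/TNFα. Among the gained peaks ahead of them were those near Tnfsf15 (165.1 normalized tags) and Trim32 (114.8) on chromosome 4, where the input itself reached 17.6 and 19.9 normalized tags compared with a median of 1.10 over gained peaks.

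Among lost peaks, the first 4 by normalized tags also lay over high input. They were 2 peaks near Mdm1 on chromosome 10 (269.7 and 187.7 normalized tags), 1 near Sfi1 (126.5), and 1 near Cwc22 (108.0), and their input was between 13.2 and 31.9 normalized tags compared with a median of 0.778 over lost peaks. The part of the input in these gained and lost calls was not tested. None of these 4 was called with FSK alone or in control cells. The next were the peak near Sirt4 and a promoter peak of S100a4, a calcium-binding protein of fibroblasts, with 74.4 normalized tags and an input of 1.56. The S100a4 peak was also called with FSK alone and in control cells.

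The kept peaks described here, among those with the smallest sum of ranks, were at promoters. They were at Srsf7, a splicing factor, with 154.9 normalized tags with TNFα and 93.4 with FSK/TNFα, and Junb, an AP1 subunit, with 151.5 and 90.9. Polr2a, the largest subunit of RNA polymerase II, had 176.4 and 84.6, Ing1 had 136.7 and 90.9, and Taf13, a subunit of TFIID, had 119.7 and 96.5. These 5 were called in control cells and with FSK alone, and each had fewer normalized tags with FSK/TNFα.

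This was the general direction at kept peaks. Over 6133 pairs the median log2 ratio of normalized tags, FSK/TNFα over TNFα, was -0.46, with quartiles of -0.85 and -0.03. More normalized tags with FSK/TNFα were listed for 1410 pairs (23.0%), a difference of over 2-fold upward for 153 pairs (2.49%), and one of over 2-fold downward for 1052 pairs (17.2%). The median fold over input was 18.9 with TNFα and 9.40 with FSK/TNFα, and the median input at these peaks was 1.17 and 1.47 normalized tags. The scaling is by library size, so a lower IP efficiency and lower occupancy cannot be told apart, and ratios are best read against the median of all pairs. The ranks of normalized tags in the 2 libraries had a Spearman correlation of 0.599 across the 6133 pairs, as a description.

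Kept peaks outside promoters and those with AP1 or full CRE matches were less reduced. High-input segments are left out of the counts that follow. The median log2 ratio was -0.51 at 4376 promoter pairs and -0.30 at 1742 pairs elsewhere. It was -0.10 at 232 pairs with an AP1 site, of which 36 were over 2-fold higher (15.5%) and 17 over 2-fold lower (7.33%). It was -0.12 at 171 pairs with the full CRE and -0.41 at 1586 pairs with a half-site, compared with -0.47 at 4532 pairs without one. At 316 pairs outside promoters with a half-site, 43 were over 2-fold higher (13.6%) and 40 over 2-fold lower (12.7%). The groups also differed in height with TNFα. The median was 21.5 normalized tags at promoter pairs, 15.5 elsewhere, 12.3 with an AP1 site, and 21.5 with the full CRE. The part of this starting height in the ratios was not tested.

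The largest upward ratios were at distal CRE peaks on chromosome 2 and at Babam2. The 2 leading peaks lay between Cebpb, a transcription factor induced early in adipogenesis, and Ptpn1, a phosphatase of the insulin receptor. The peak 88611 bp downstream of the Cebpb start site had 10.6 normalized tags with TNFα and 112.2 with FSK/TNFα (log2 ratio 3.4), and the peak 71595 bp upstream of Ptpn1 had 10.2 and 114.1 (log2 ratio 3.48). In a promoter window 469 bp downstream of a Babam2 start site the values were 11.0 and 109.4 (log2 ratio 3.31). These 3 peaks held the full CRE, and the Cebpb and Ptpn1 peaks overlapped p65 peaks with FSK/TNFα. A peak near Cdc5l with an AP1 site had 6.42 and 47.8 (log2 ratio 2.90), and a 2nd peak near Cd93 had 11.0 and 80.5 (log2 ratio 2.87). All 5 were called with FSK alone and none in control cells. The midpoints of the TNFα and FSK/TNFα peaks lay 59 bp apart near Ptpn1, 89 bp near Cebpb, 76 bp at Babam2, 64 bp near Cdc5l, and 8 bp near Cd93, so that in 4 of these pairs the ratio compares stretches that overlap only in part.

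The largest downward ratios were in promoter windows. A peak 579 bp downstream of the nearest start site, of S100a13, a calcium-binding protein, lay in the promoter window of another start site. There 32.5 normalized tags were listed with TNFα and 5.34 with FSK/TNFα (log2 ratio -2.61), with midpoints 4 bp apart. Schip1 had 55.2 and 11.3 (log2 ratio -2.29), with midpoints 33 bp apart. At Nckap5l (31.7 and 5.97), Snrk (25.3 and 5.03), and Zfp457 (38.9 and 7.86) the midpoints lay 132, 109, and 97 bp apart, and these 3 ratios again compare stretches that overlap only in part.

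**Figure D4:**
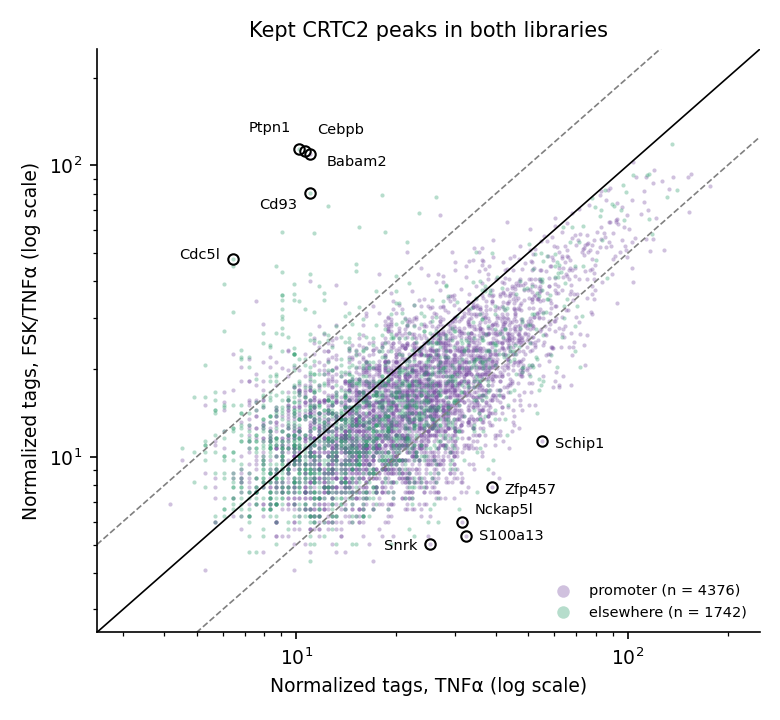
Normalized tags of the 6118 kept pairs outside high-input segments, with TNFα (x axis, log scale) and with FSK/TNFα (y axis, log scale), in promoters (purple) and elsewhere (green). The solid line is equality and dashed lines are 2-fold differences; circles mark the 5 largest ratios each way, which are Ptpn1, Cebpb, Babam2, Cdc5l, and Cd93 upward and S100a13, Nckap5l, Snrk, Zfp457, and Schip1 downward.

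Established CREB target genes were followed as a list of 25 genes. Over all 21951 protein-coding genes, 5101 had a promoter peak in both lists (23.2%), 622 with FSK/TNFα only (2.83%), and 2819 with TNFα only (12.8%). Of the 25 CREB targets, 14 had one in both lists (56.0%), 4 with FSK/TNFα only (16%), 1 with TNFα only (4%), and 6 in neither. At least 1 gained peak within 100 kb was nearest to 21 of the 25 (84.0%), compared with 20.3% of all genes, and at least 1 lost peak was nearest to 17 (68.0%), compared with 33.7%. In all, 66 gained, 34 lost, and 25 kept peaks were nearest to these genes.

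The promoters with a peak only with FSK/TNFα were Sik1 (61.3 normalized tags), Nr4a3 (38.4), Fosb (24.2), and Nr4a2 (16). Sik1 encodes a salt-inducible kinase that phosphorylates CRTC2, Nr4a2 and Nr4a3 are orphan nuclear receptors, and Fosb is an AP1 subunit. All 4 peaks held CRE half-sites and were called with FSK alone. At Sik1 the gained peak was 174 bp upstream of the start site, and a lost peak of 13.2 normalized tags lay 299 bp from it in an exon. Nr4a1 had a gained peak of 62.9 normalized tags 21 bp upstream of a start site. It was listed as 171-fold above input, a ratio that rests on very few input tags. At another Nr4a1 start site a kept peak had 8.31 normalized tags with TNFα and 12.6 with FSK/TNFα.

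Other CREB targets were bound in both lists, some at shifted positions. Gem, a small GTPase, had 7.56 normalized tags with TNFα and 34.3 with FSK/TNFα at a kept promoter peak with a CRE half-site. Fos had 29.5 and 50.3 at a kept promoter peak. Per1, a circadian repressor, had 3 lost promoter peaks of between 18.9 and 21.2 normalized tags, a gained intronic peak with a full CRE (69.5 normalized tags), and a gained promoter peak (32.1). Crem, the cAMP-inducible repressor, had 3 gained promoter peaks (18.2, 18.5, and 24.5) and 1 lost promoter peak (17.0). Of the 14 CREB targets with a promoter peak in both lists, 12 had overlapping promoter peaks. Gene ratios here and below compare the highest promoter peak of each list, which can be different peaks. At Nr4a1 they compare a kept peak of 8.31 with the gained peak of 62.9, and at Per1 and Crem the promoter peaks did not overlap. By this measure 7 were higher and 7 lower with FSK/TNFα, with a median log2 ratio of -0.05 compared with -0.52 over 5101 genes. Dusp1 (103.1 and 76.1), Ier2 (99.3 and 48.4), and Gadd45b (87.6 and 64.1), which are early stress-response genes, had fewer normalized tags with FSK/TNFα.

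The components of the cAMP pathway were followed as another list of 25 genes. Of these, 11 had a promoter peak in both lists (44.0%), 2 with FSK/TNFα only (8%), and 3 with TNFα only (12%). Over all genes the promoter shares were 23.2%, 2.83%, and 12.8%, so the share with TNFα only was near the background. At least 1 gained peak was nearest to 13 (52.0%) and at least 1 lost peak to 16 (64.0%), compared with 20.3% and 33.7% of all genes. Pde10a, a phosphodiesterase that degrades cAMP, had a gained promoter peak of 50 normalized tags, with 5 gained and 0 lost peaks in all. At Sik2, another salt-inducible kinase, a kept promoter peak had 21.2 normalized tags with TNFα and 29.9 with FSK/TNFα. Crtc2 had 25.7 and 24.8 at its own promoter, and Creb1 had 44.2 and 35.8. Crtc1 (19.6), Prkar2b (7.93), and Crebbp (6.04) had a promoter peak with TNFα only.

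All 20 genes of NF-κB signaling and its feedback had a promoter peak in at least 1 list, 11 in both lists (55.0%), 5 with FSK/TNFα only (25%), and 4 with TNFα only (20%). At least 1 gained peak was nearest to 15 (75%) and at least 1 lost peak to 17 (85.0%). Over all genes the promoter shares were 23.2%, 2.83%, and 12.8%, and the shares near gained and lost peaks 20.3% and 33.7%. Birc3, an inhibitor of apoptosis, had 13.2 normalized tags with TNFα and 39.0 with FSK/TNFα at a kept peak, and Birc2 had a gained promoter peak of 24.8 with a full CRE, 173 bp from a lost exonic peak of 24.6. At Tnfaip3, which encodes the deubiquitinase A20, a gained promoter peak had 20.4 normalized tags with CRE and AP1 sites and overlapped a p65 peak, and a lost exonic peak of 17.4 lay 321 bp from it. Nfkbia, which encodes IκBα, had 79.3 and 55.6 at its promoter, together with 5 gained peaks within 100 kb, the strongest of 31.8 normalized tags at 27656 bp downstream of the start site. Relb (21.2), Rela (17.0), Cyld (15.9), and Ikbkb (11.3) had a promoter peak with TNFα only.

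Chemokine and cytokine promoters with a CRTC2 peak kept it in both lists. Of 22 genes, 10 had a promoter peak in both lists (45.5%, compared with 23.2% of all genes), all at overlapping positions. Of these 10, 8 were lower with FSK/TNFα, with a median log2 ratio of -0.68. Over all genes with a promoter peak in both lists 4110 of 5101 were lower, with a median of -0.52, so the share of lower chemokine genes was near the background. Ccl2, a monocyte chemoattractant, had 97.8 normalized tags with TNFα and 52.8 with FSK/TNFα, Cxcl1 had 87.6 and 54.7, Cxcl5 had 54.4 and 43.7, and Cxcl10 had 45.0 and 14.5. Vcam1, an adhesion molecule, had 133.3 and 83.0, Csf1, a macrophage growth factor, had 113.7 and 56.0, and Ccl7 had 109.2 and 68.2. Il6 and Lif were the 2 that were higher. The Il6 promoter had a kept peak of 11.0 normalized tags with TNFα and 40.2 with FSK/TNFα, with a CRE half-site and an AP1 site, and a lost peak of 11.7 beside it. At the Lif promoter the values were 11.3 and 13.2. Ptgs2, the inducible cyclooxygenase, had a promoter peak with FSK/TNFα only (37.1), which overlapped a TNFα peak of 20 normalized tags whose midpoint fell in the exon, so the peak itself was kept.

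Gained peaks lay upstream or downstream of the same chemokine genes. At least 1 was nearest to 14 of the 22 genes (63.6%, compared with 20.3% of all genes). At least 1 lost peak was nearest to 11 (50%, compared with 33.7% of all genes). Ccl2 had 4 gained peaks between 12818 and 28596 bp upstream of its start site, of 32.4, 26.1, 14.8, and 12.6 normalized tags, and 2 of them overlapped p65 peaks. Cxcl1 had 3 gained peaks between 9477 and 14434 bp upstream (21.1, 17.9, and 13.5 normalized tags), and Cxcl2 had 1 at 2884 bp upstream (13.5) and none at its promoter. A kept peak 5579 bp upstream of Cxcl5 with TNFα had 9.07 normalized tags and 35.8 with FSK/TNFα. Downstream of Lif, a kept peak had 11.3 and 58.8 normalized tags and a gained peak had 54.7, and both overlapped p65 peaks with TNFα. Of 11 genes chosen from those that the study names, 7 had a promoter peak in both lists (63.6%, compared with 23.2% of all genes). By their highest peaks 4 of the 7 were higher with FSK/TNFα (57.1%, compared with 19.1% over all genes), including Nr4a1, where the 2 peaks differ. For Cxcl2, Tnf, Il1b, and Cebpa no promoter peak was listed. No peak within 100 kb was nearest to Tnf, Il1b, or Cebpa in either list.

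**Figure D5:**
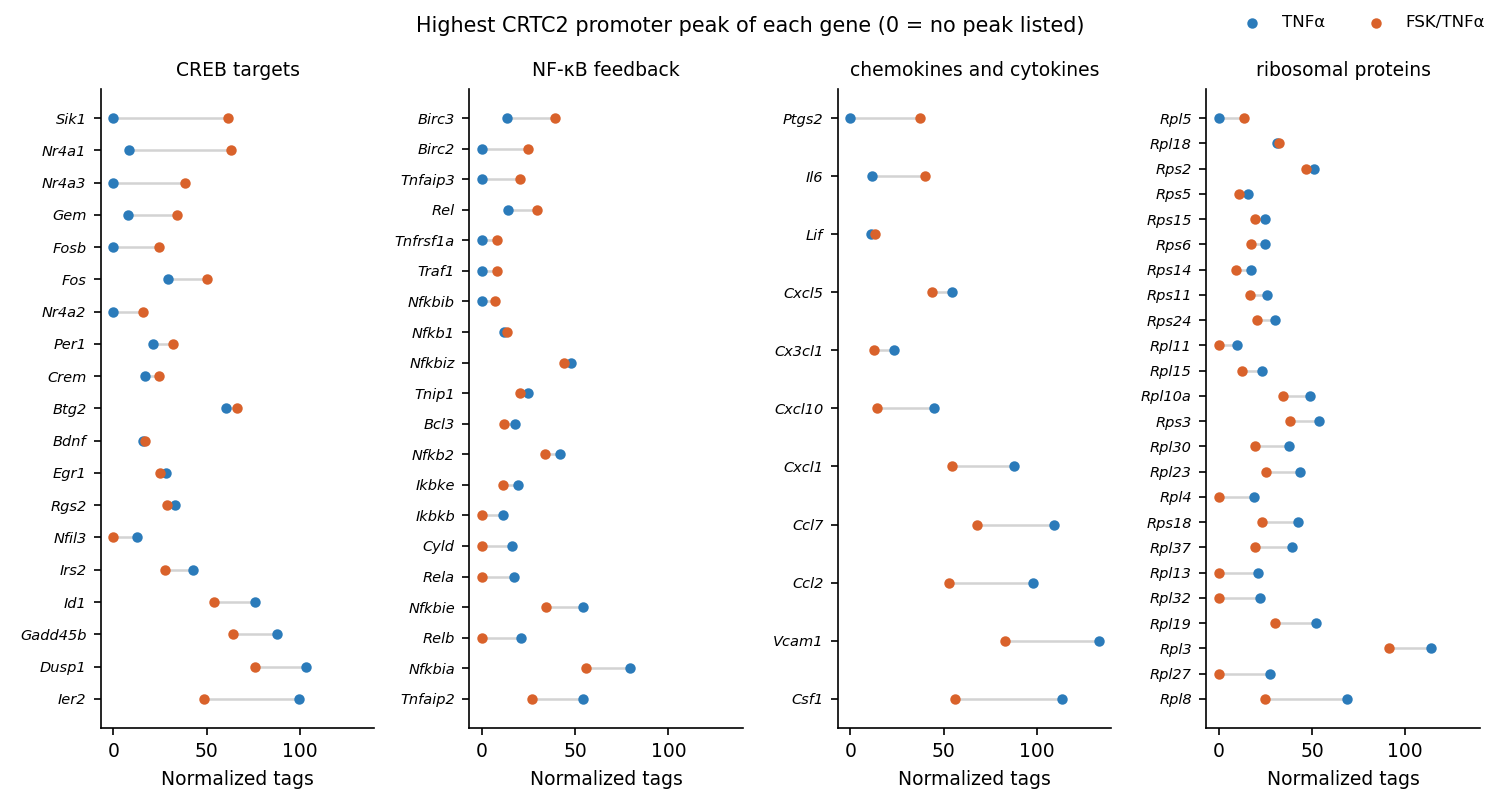
Normalized tags (x axis) of the highest CRTC2 promoter peak with TNFα (blue) and FSK/TNFα (orange) for each gene (y axis) of 4 lists. Genes without a promoter peak in either list are left out, and 0 stands for no peak listed in that library. Sik1 (none and 61.3) and Nr4a1 (8.31 and 62.9) lead the CREB targets, while Csf1 (113.7 and 56.0) and Rpl8 (68.8 and 24.8) are lower with FSK/TNFα.

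Some promoters of AP1, MAF, and adipogenic factor genes were higher with FSK/TNFα, and others were lower. Of 13 AP1 and MAF genes, 8 had a promoter peak in both lists, with a median log2 ratio of 0.29. Of these 8, 5 were higher (Fos, Fosl2, Maf, Maff, and Mafk) and 3 lower (Jun, Junb, and Jund). Over all genes 23.2% had a promoter peak in both lists, and of these 19.1% were higher, with a median of -0.52. Fosl2 had 17.8 normalized tags with TNFα and 42.4 with FSK/TNFα, Maff had 18.9 and 34.6, and Jun (721.5 and 500.8) lay in a high-input segment. Of 17 C/EBP and adipogenic factors, 3 had a promoter peak with FSK/TNFα only (17.6%), namely Cebpb (29.2), Pparg (13.8), and Cebpg (9.43), and 3 with TNFα only, namely Srebf1 (26.1), Stat5a (11.7), and Rxra (11.0), compared with 2.83% and 12.8% of all genes. The Cebpb peak overlapped a TNFα peak of 25.7 normalized tags whose midpoint fell 121 bp downstream of the start site, just beyond the promoter, so it was kept. Cebpd, which precedes Pparg in adipogenesis, had 45.0 and 43.7. Of the 5 genes of this list with a promoter peak in both lists, Klf4, Klf5, and Klf9 were higher and Cebpd and Ebf1 lower.

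Storage and ribosomal genes had promoter peaks with TNFα only more often than with FSK/TNFα only, as all genes did. Of 24 adipocyte storage and lipolysis genes, 5 had a promoter peak with TNFα only (20.8%), namely Fabp4 (14.4), Lipe (12.5), Plin2 (12.1), Lpl (10.6), and Scd1 (7.93), and 0 with FSK/TNFα only, compared with 12.8% and 2.83% of all genes. The 6 with one in both lists included Dgat1 (97.1 and 61.3), Fasn (73.7 and 49.4), and Abhd5, a coactivator of triglyceride lipase (36.6 and 46.8). Of 26 ribosomal protein genes, 5 had a promoter peak with TNFα only, 1 with FSK/TNFα only, and 18 in both lists (69.2%), compared with 23.2% of all genes. Of these 18, 17 were lower with FSK/TNFα, with a median log2 ratio of -0.59, compared with 4110 of 5101 and -0.52 over all genes. Of 13 clock genes, 8 had one in both lists and 2 with FSK/TNFα only, Per2 (8.49) and Per3 (10.1), and 2 with TNFα only, Clock (19.6) and Nr1d2 (11.3), against the same shares of all genes.

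Some genes had many unshared peaks. Sik1 was nearest to most gained peaks, with 10, together with 6 lost and 2 kept, and the gained ones had between 5.97 and 61.3 normalized tags. Akap2, an anchor of protein kinase A, had 9 gained and 9 lost peaks, Ltbp1 had 9 gained and 4 lost, Mbnl1 had 9 and 7, and Acsl4, an acyl-CoA synthetase, had 8 gained and 1 lost. Most lost peaks lay near Asap1, with 12 and 2 gained, followed by Camk2d, Nfkb1, and Rnf213 with 10 each. The lost peaks of Asap1 had between 7.18 and 13.6 normalized tags.

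Lost peaks were densest on chromosomes 11, 3, and 15, which hold Rnf213, Camk2d with Nfkb1, and Asap1. They numbered 10.6, 8.79, and 8.72 per Mb there, compared with a median of 4.8 over chromosomes. Gained peaks were also densest on these chromosomes, with 5.41, 4.46, and 4.82 per Mb compared with a median of 2.94. On chromosomes 3 and 15 only 19.9% and 23.8% of TNFα peaks were kept. The median input density of segments, taken over H3AcK27 regions, on chromosomes 11, 3, and 15 was 1.27, 1.47, and 1.31 times that of the median segment in the control input and 1.31, 1.47, and 1.31 times in the FSK input. The part of this input level in the peak numbers was not tested.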

How the data were processed

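ChIP-seq peak lists for CRTC2, p65, and H3AcK27 in 3T3-L1 cells were grouped by their labels. Per the labels, reads were processed with STAR and HOMER on mm10. The authors called peaks in each library and deposited, for each peak, a tag signal scaled to 10000000 tags, a HOMER score, and a ratio (fold) over input. Peaks had at least 4-fold more tags than input and than the surrounding 10 kb, and the score counts at most 1 tag per position. Deposited input tags were rescaled to the same total here.

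Members and gene lists were chosen with earlier results of these data known. Gene models were the protein-coding ones of GENCODE mouse (release 21), and sequences are from GRCm38.p6, in which 0 of 243429 peaks ran past a chromosome end. The named peaks were the 6 per class with most normalized tags on chromosomes 1 to 19 and X outside high-input segments of 2 Mb (kept: smallest rank sum), the 5 largest ratios each way among kept peaks with at least 20 normalized tags in either list, the 5 genes nearest to most gained or lost peaks, up to 4 genes per list and class, and 11 genes chosen from those that the study names. Genes beyond these were chosen after their values were seen. Sequences of named peaks over high input were left out. Of the named peaks, 1 gained and 1 kept peak are not reported here.

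With 1 library per treatment no test was possible. Shares carry 95% Wilson intervals. No interval was put on tags. Alternatives covered the overlap rule, list length, an 8-fold threshold, ranking, high-input segments, promoter extent, and motif window, and a distance of 1000 bp was added after the data were seen. Overlap, distance, and motif code was tested on simulated data. Python 3.11.15, numpy 2.4.6, scipy 1.17.1, pandas 2.3.3, and matplotlib 3.10.9 were used.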

Additional observations from a re-analysis of the deposited data

How the results depend on the processing

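Each comparison rests on 1 library per treatment, so leaving out a replicate could not be done. No paired analysis was possible because there was only 1 library for each treatment and target. Differences below are gained minus lost shares in percentage points, and the values as reported were -13.8 for promoters, 12.3 for the CRE half-site, 16.1 for AP1, 16.8 for the FSK list, -2.54 for the control list, 13.3 for H3AcK27 with FSK/TNFα, and 3.97 for p65 with FSK/TNFα. Of 92 alternative values 48 moved by more than their counting interval, or for counts by over 1.5 times, and 2 changed direction. Both that changed direction were H3AcK27, at -2.42 in the best 5000 peaks and -2.85 in equal lists by score, and the cause was not tested. It was 0.467 in equal lists by normalized tags, 7.44 at 8-fold over input, and 16.3 within 1000 bp.

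The promoter difference was -11.4 with midpoints within 100 bp, -10.1 with mutual overlap of at least 0.5 of both peaks, -20.9 at 8-fold, -23.5 and -26.3 in equal lists by normalized tags and by score, -39.9 in the best 5000, -17.7 within 1000 bp, and -16.7 and -19.3 with promoters of 500 and 2000 bp on either side. The CRE half-site difference was 11.1 at 8-fold, 10.3 and 10.0 in the equal lists, 17.8 in the best 5000, and 9.62 and 10.4 in windows of 100 and 400 bp. The AP1 difference was 14.8 with midpoints, 14.2 with mutual overlap, 21.1 in the best 5000, 19 within 1000 bp, and 9.77 and 18.9 in the 2 windows. The FSK difference was 13.4 at 8-fold, 11.9 and 11.0 in the equal lists, 14.9 in the best 5000, and 18.1 within 1000 bp. The control difference was -1.90 with midpoints, -1.57 with mutual overlap, -6.37 at 8-fold, -4.74 and -5.09 in the equal lists, -15.2 in the best 5000, and -3.12 within 1000 bp. The p65 difference was 4.64 at 8-fold and 8.37 in the best 5000.

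Counts of peaks changed with the lists by construction. At 8-fold 3132 TNFα peaks were kept and 5137 FSK/TNFα peaks gained. The equal lists left 8419 and 8304 lost peaks, and the best 5000 gave 2443 kept, 2557 lost, and 2557 gained. The median log2 ratio at kept peaks was -0.48 with midpoints within 100 bp. Ranking by fold over input gave a first decile of which 54.9% (TNFα) and 41.0% (FSK/TNFα) were shared, and in the FSK/TNFα list shared and unshared peaks then had the same median rank. The cause was not tested. The distance of 1000 bp was chosen after seeing the data.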
